A study of Mus musculus with 63 samples.

Results

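The genes described here are the oxidative phosphorylation genes of the mouse, taken by name from the gene count tables of 4 sorted cell populations of the cortex. A row was a member when its Ensembl identifier belonged to a protein-coding gene whose symbol began with Ndufa, Ndufb, Ndufc, Ndufs, Ndufv, Sdh, Uqcr, Cox4, Cox5, Cox6, Cox7, Cox8, Atp5 or mt-. This gave 111 members among the 56980 genes listed, 98 encoded in the nucleus and 13 in the mitochondrial genome. By role, 36 nuclear members were subunits of complex I, 4 of complex II, 8 of complex III, 19 of complex IV and 18 of complex V, and 13 were assembly or regulatory factors whose names share these prefixes. Of the 111 members, 1 had 0 counts in every library used. The prefixes do not reach every subunit: cytochrome c1 (Cyc1) and cytochrome c (Cycs), for example, are read below among the other genes of the pathway. The 37 genes with these prefixes that are not protein coding were left out.

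The respiratory chain sits in the inner mitochondrial membrane. Complexes I and II take electrons from NADH and succinate, complex III passes them to cytochrome c, complex IV hands them to oxygen, and complex V uses the proton gradient that builds up to make ATP. Complex II is encoded wholly in the nucleus, whereas the other 4 complexes combine nuclear subunits with a few that are transcribed from mitochondrial DNA. In the brain, astrocytes and microglia also rely on glycolysis, and the nuclear subunits of the chain are known to be switched on together by regulators of mitochondrial biogenesis such as the coactivator PGC-1α (Ppargc1a).

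The study asked how a small burn of the skin changes gene expression in the brain. All mice were female C57BL/6J, 12 weeks old, and received either a thermal burn of 7 to 8% of the body surface or a sham procedure, with tissue taken 5 weeks after injury. Every mouse, sham mice included, carried injections of AAV5-CaMKII-eGFP and AAV1-mDlx-mRuby2 into the motor cortex, so that sorting rested on a CaMKII promoter and an mDlx enhancer carried by viruses. CaMKII positive cells and CaMKII-mDlx double-positive cells were sorted from the injected motor cortex, and ACSA2-positive astrocytes and CD11b-positive microglia from cortex caudal to it, so that region and cell type cannot be told apart where a population of one source was compared with one of the other. The 58 libraries used came from 17 mice: 4 burn and 6 sham libraries of CaMKII positive cells, 9 and 7 of double-positive cells, 9 and 8 of astrocytes, and 8 and 7 of microglia. Mouse number 3 and the double-positive library of mouse number 8 were left out. Libraries of 1 mouse recur in several populations, and each comparison of populations shares the libraries of 1 population with each of 2 others.

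Total counts ran from 13346143 to 134703744 per library, so that 3 counts, the most that a count of 0 allows, equal 0.0223 to 0.225 CPM, the usual scaling of a gene's count by its library's total. The labels of the neuronal gates were checked against cell type markers. In CaMKII positive libraries the 7 astrocyte markers summed to a median of 19002 CPM and the 5 endothelial markers to 3566, against 108 for the 6 excitatory neuron markers. In double-positive libraries the 7 microglia markers summed to a median of 19109 CPM, against 1.74 for the 7 inhibitory neuron markers. The data went against the neuronal labels, and these populations are called by their gates. Astrocyte markers summed to 37237 CPM in the astrocyte libraries and microglia markers to 24638 CPM in the microglia libraries. The study's list of its animals puts the mice in 3 batches, and its methods correct for sequencing batch. In batch 3, sham mice carry numbers 15 to 19 and burn mice 20 to 24, so that anything that runs with the number cannot be told apart from treatment there.

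Promoter sequence was available in RefSeq (GRCm38.p6) for 78 of the 98 nuclear members, from 250 bases before to 50 after the annotated start. Motifs linked to respiratory genes, 4 in all, were searched for on both strands by their exact letters: an NRF1 core (GCGCATGC), a YY1 core (AAGATGGCG), an ETS core (CCGGAAGT) and an ERR motif (TCAAGGTCA). The NRF1 core stood in 12 member promoters (15.4%), against 3.05% of all 27025 genes with a promoter and 3.93% of protein-coding genes. The YY1 core stood in 8 (10.3%, against 1.64% and 2.14%), the ETS core in 5 (6.41%, against 4.31% and 5.69%) and the ERR motif in 2 (2.56%, against 0.47% and 0.377%). Any of the 4 was present in 26 members (33.3%), against 8.93% of all genes and 11.4% of protein-coding genes. A match is a run of letters and not a bound site, and a promoter without one holds none of these letters in this window only. Below are 6 promoters on the strand of the gene, 5′ to 3′, with motif letters in capitals. Sdhb and Sdhd belong to complex II, whose 4 genes are described in full. Cox8a had the highest nuclear level per kilobase in astrocytes. Cox6a1 and Uqcr11 hold more than 1 match, and Cox7a1 is an isoform whose level differed strongly between populations and whose window held none.
Sdhb (chr4:140961021-140961320, plus strand): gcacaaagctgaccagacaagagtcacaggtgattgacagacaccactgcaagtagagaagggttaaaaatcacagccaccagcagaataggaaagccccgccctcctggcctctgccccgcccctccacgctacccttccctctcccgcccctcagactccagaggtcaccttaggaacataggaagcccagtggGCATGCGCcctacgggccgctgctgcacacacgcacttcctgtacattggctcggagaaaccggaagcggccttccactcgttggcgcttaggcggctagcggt
Sdhd (chr9:50603800-50604099, minus strand): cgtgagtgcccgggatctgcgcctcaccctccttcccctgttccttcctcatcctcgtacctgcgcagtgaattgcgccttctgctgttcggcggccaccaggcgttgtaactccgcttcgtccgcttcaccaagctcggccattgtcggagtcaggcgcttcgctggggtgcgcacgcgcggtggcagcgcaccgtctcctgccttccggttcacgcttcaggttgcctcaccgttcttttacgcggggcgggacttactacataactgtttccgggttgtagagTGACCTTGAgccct
Cox8a (chr19:7217567-7217866, minus strand): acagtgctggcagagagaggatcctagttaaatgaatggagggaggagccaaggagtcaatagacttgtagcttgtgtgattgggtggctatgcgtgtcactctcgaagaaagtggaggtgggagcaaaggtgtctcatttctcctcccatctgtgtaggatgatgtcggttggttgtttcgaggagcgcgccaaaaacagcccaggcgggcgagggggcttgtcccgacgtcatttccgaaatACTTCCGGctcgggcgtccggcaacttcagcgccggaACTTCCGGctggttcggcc
Cox6a1 (chr5:115348909-115349208, minus strand): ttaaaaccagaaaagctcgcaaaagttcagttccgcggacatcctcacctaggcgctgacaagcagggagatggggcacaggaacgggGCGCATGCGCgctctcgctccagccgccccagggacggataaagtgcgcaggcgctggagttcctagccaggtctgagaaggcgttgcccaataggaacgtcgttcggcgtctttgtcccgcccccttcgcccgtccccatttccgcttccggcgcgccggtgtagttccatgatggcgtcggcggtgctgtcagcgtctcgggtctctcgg
Uqcr11 (chr10:80406772-80407071, minus strand): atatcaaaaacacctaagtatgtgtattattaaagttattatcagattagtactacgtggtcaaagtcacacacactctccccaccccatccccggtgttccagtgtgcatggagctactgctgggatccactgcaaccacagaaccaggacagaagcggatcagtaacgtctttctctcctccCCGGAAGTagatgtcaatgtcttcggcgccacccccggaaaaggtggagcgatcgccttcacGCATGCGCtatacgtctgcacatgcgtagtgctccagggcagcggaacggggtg
Cox7a1 (chr7:30183921-30184220, plus strand): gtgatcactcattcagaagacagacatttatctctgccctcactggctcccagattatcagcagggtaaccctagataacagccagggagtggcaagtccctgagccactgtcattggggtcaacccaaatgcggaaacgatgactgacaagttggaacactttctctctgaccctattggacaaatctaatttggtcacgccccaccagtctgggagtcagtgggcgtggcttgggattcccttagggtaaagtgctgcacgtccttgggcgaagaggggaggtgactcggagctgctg
In Sdhb the NRF1 core begins 54 bases before the start, and in Sdhd the ERR motif lies after it. In Cox6a1 overlapping NRF1 cores on the 2 strands begin 162 and 160 bases before the start. In Cox8a 1 ETS core begins 6 bases before the start and spans it, and another lies after it. In Uqcr11 an ETS core begins 66 bases before the start, and an NRF1 core begins 4 bases before it and spans it.

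The mitochondrially encoded members share transcripts and, in places, bases. The reading frame of mt-Atp8 (chrM:7766-7969, plus strand, GRCm38) is 204 bases long, and its last 43, in capitals here, are also the first of mt-Atp6. It is shown because this overlap leaves mt-Atp8 with 161 bases of its own, and because its counts were near 0.
mt-Atp8: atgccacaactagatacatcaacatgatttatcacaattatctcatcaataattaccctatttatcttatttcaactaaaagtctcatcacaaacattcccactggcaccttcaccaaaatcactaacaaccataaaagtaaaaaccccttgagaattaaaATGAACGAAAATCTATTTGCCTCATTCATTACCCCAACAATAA
mt-Nd4l shares 7 of its 297 bases with mt-Nd4. mt-Atp8 was counted at or near 0 in all 4 populations, with a highest value of 1.40 CPM, and mt-Nd4l was low, with medians of 0.569 to 2.06 CPM in the 4 populations and a highest value of 5.58 CPM. How reads over such overlaps were counted is not given in the sources used here, and no fold of either gene is described.

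Oxidative phosphorylation transcripts took a larger share of the counts in astrocytes and CaMKII positive cells than in microglia and double-positive cells. The 13 mitochondrially encoded members held 1.78% ± 0.4996 (SD, n = 17) of the counts in astrocytes, 1.51% ± 0.507 (n = 10) in CaMKII positive cells, 0.608% ± 0.161 (n = 16) in double-positive cells and 0.583% ± 0.143 (n = 15) in microglia. For the 85 nuclear subunits the shares were 0.485% ± 0.0419, 0.375% ± 0.0334, 0.188% ± 0.0172 and 0.186% ± 0.0173 in the same order. The populations fell into a high and a low pair for the nuclear share, without overlap: the lowest library of the high pair reached 0.333% and the highest of the low pair 0.224%. The mitochondrial share overlapped between the pairs, from 0.793% in the lowest CaMKII positive library to 0.951% in the highest double-positive library. Within each pair the ranges of both measures touched or overlapped. The ratio of mitochondrial to nuclear counts was 3.65 ± 0.958 in astrocytes, 4.02 ± 1.25 in CaMKII positive cells, 3.24 ± 0.813 in double-positive cells and 3.18 ± 0.897 in microglia, and its ranges overlapped in all 4. In sorted bulk samples such as these, fewer cells of a type and less RNA per cell cannot be told apart.

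**Figure D1:**
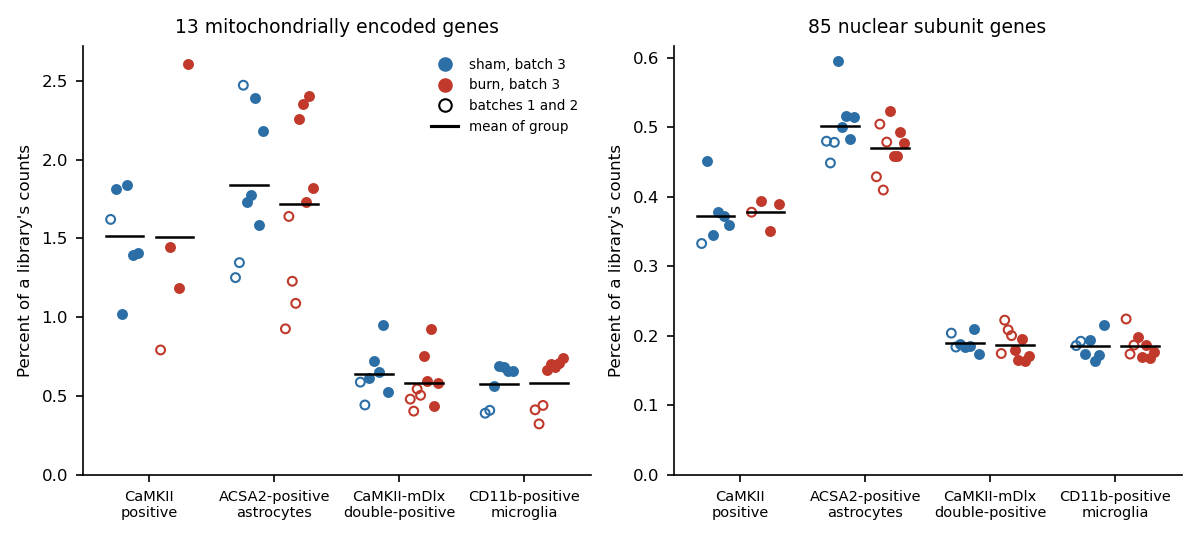
Share of all counts (%) that fell on the 13 mitochondrially encoded members and on the 85 nuclear subunits, by population and treatment, with 1 point per library, filled for batch 3 and open for batches 1 and 2, and a line at the mean of each group. For nuclear subunits every astrocyte and CaMKII positive library lies at or above 0.333%, and every double-positive and microglia library at or below 0.224%.

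Each complex followed this order. For complex I the median level of the subunits was 20.7 CPM per kilobase of exon in astrocytes, 16.0 in CaMKII positive cells, 7.68 in double-positive cells and 7.17 in microglia. Complex II was at 34.9, 25.8, 16.6 and 15.5 CPM per kilobase in the same order, and complex III at 49.6, 35.8, 15.7 and 14.5. Complex IV was at 25.1, 18.3, 6.89 and 5.98, and complex V at 16.4, 14.5, 5.47 and 5.23. The assembly and regulatory members were lower and more alike, with medians of 5.16, 5.10, 2.71 and 2.43 CPM per kilobase. The median of the mitochondrially encoded members, 350, 305, 187 and 189 CPM per kilobase, lay above all of these. Among the nuclear subunits, Cox8a (a small structural subunit of complex IV) had the highest level per kilobase in astrocytes and CaMKII positive cells, at 159 ± 32.6 and 121 ± 46.8. Atp5a1 (the alpha subunit of complex V) led in double-positive cells and microglia, at 55.5 ± 9.46 and 59.1 ± 9.96. Atp5b, Cox6b1 and Cox4i1 completed the top 5 in every population. The SD of Cox8a overlapped those of Atp5b and Atp5a1 in each population, so that its place among them is not resolved.

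Astrocytes were compared with microglia in edgeR with batch and treatment as terms and Benjamini-Hochberg adjustment over all 30983 genes tested. A member was called at an adjusted p (p.adj) of at most 0.05, a rule that called 40.3% of all genes higher in astrocytes and 29.3% lower. Of the 96 nuclear members tested, 93 were higher in astrocytes and 2 lower. Their median log2FC (astrocytes over microglia) was 1.46, or 2.75-fold, beside 0.28 over all genes and 0.34 over protein-coding genes. At an absolute log2FC of at least 1, 81 were higher and 1 lower. All 36 subunits of complex I were higher (median log2FC 1.52), as were all 4 of complex II (1.24), all 8 of complex III (1.57) and all 17 tested of complex V (1.49). In complex IV 17 were higher and 1 lower of 18 (2.03). The 17 include Cox7b2 and Cox8b, which were at 0 in all 15 microglia libraries and passed the count filter through astrocytes alone. Among the assembly and regulatory members 11 were higher and 1 lower of 13 (0.95). The 11 mitochondrially encoded members other than mt-Atp8 and mt-Nd4l were also higher, and the median of all 13 was 1.48.

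The largest differences among nuclear members of at least 10 CPM were in accessory subunits of complex I. Ndufs5 had 26.8, 32.2 and 52.7 CPM (lowest, median and highest) in astrocytes and 4.96, 5.86 and 9.58 in microglia, a log2FC of 2.51 ± 0.113 (SE, p.adj = 4.61e-20). Ndufb6 had 11.4, 19.3 and 33.1 CPM against 1.29, 3.69 and 6.15, a log2FC of 2.48 ± 0.173 (p.adj = 9.33e-15), although 31.6% of its 50-base windows also occur in another gene. Ndufa12 had 44.9, 64.4 and 97.1 CPM against 10.1, 12.6 and 20.9, a log2FC of 2.42 ± 0.0915 (p.adj = 2.72e-22). For all 3 genes the lowest astrocyte library lay above the highest microglia library, as it did for 65 of the 96 nuclear members, 3 of the 13 mitochondrially encoded members (mt-Co1, mt-Co3 and mt-Cytb) and 13.4% of all genes tested.

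The 4 genes of complex II differed in the same direction by less, and 3 of them without overlap, beside the 13.4% of all genes given above. Sdha, the flavoprotein that oxidises succinate, had 174, 215 and 253 CPM in astrocytes and 88.1, 102 and 117 in microglia (log2FC 1.16). Its CaMKII positive libraries ran from 151 to 193 CPM and its double-positive libraries from 84.7 to 119. Sdhb, the iron-sulfur subunit with the NRF1 core in its promoter, ran from 55.0 to 80.6 CPM in astrocytes and from 16.8 to 40.4 in microglia (log2FC 1.303). Of the membrane anchors, Sdhc had 60.04 to 81.7 against 19.4 to 40.8 CPM (1.32). The ranges of Sdhd, the other anchor, overlapped at 32.5 to 71.2 against 14.3 to 34.5 CPM (1.17). In complex III, Uqcrfs1, the Rieske iron-sulfur protein, had 68.5, 82.2 and 115 CPM in astrocytes and 11.2, 20.2 and 29.6 in microglia (log2FC 2.17). In complex V, Atp5b, the catalytic beta subunit, had 493, 612 and 713 CPM against 169, 208 and 275 (1.62).

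Cox7a2l went the other way. It encodes SCAF1, a relative of the complex IV subunit Cox7a2. Its levels were 23.5, 38.1 and 51.4 CPM in astrocytes and 61.0, 74.5 and 102 in microglia, so that the populations did not overlap and microglia were higher, as for 11.6% of all genes and no other nuclear member (log2FC −0.98 ± 0.0948, p.adj = 3.31e-11). In CaMKII positive cells it stood at 37.3, 56.1 and 85.9 CPM and in double-positive cells at 48.4, 65.5 and 82.0, an order that reversed that of the nuclear subunits. Per kilobase, Cox7a2l reached 54.3% of the level of Cox7a2 in astrocytes, 88.4% in CaMKII positive cells, 262% in double-positive cells and 343% in microglia. Of its 50-base windows, 13.8% also occur in another gene. The complex I assembly factor Ndufaf7 was the 1 nuclear member tested that was not called, with medians of 22.5 CPM in astrocytes and 21.7 in microglia (log2FC 0.10 ± 0.0782, p.adj = 0.239).

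**Figure D2:**
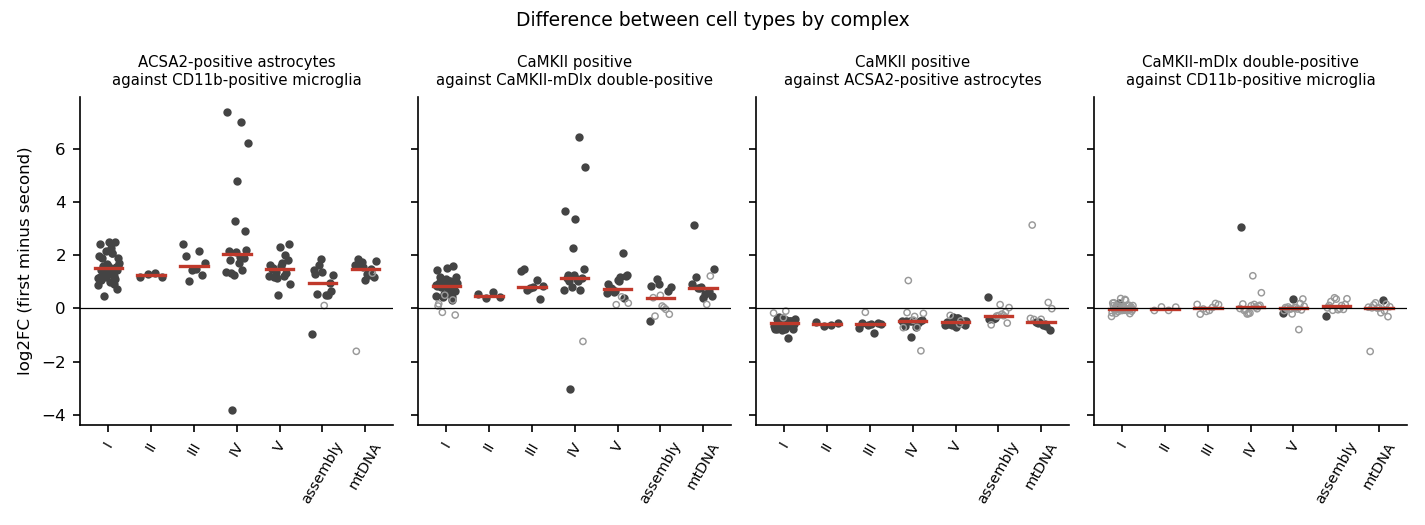
log2FC of each member in the 4 comparisons of populations, grouped by role, with 1 point per gene, filled where p.adj was at most 0.05, and a bar at the median of each role. In astrocytes against microglia the complexes sit around medians of 1.24 to 2.03, and double-positive cells against microglia sit around 0, with a median of 0.02 over nuclear members.

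Several tissue isoforms of complex IV separated the populations far more than the common subunits did, at low levels. Cox4i2, the alternative form of the regulatory subunit Cox4i1, had 1.21, 3.22 and 6.86 CPM in astrocytes, whereas 13 of 15 microglia libraries were at 0. Per kilobase Cox4i2 reached 4.90% of Cox4i1 in astrocytes, 4.42% in CaMKII positive cells, 0.539% in double-positive cells and 0.0673% in microglia. Ndufa4l2, a relative of the complex IV subunit Ndufa4 that is known to be induced in low oxygen, had 1.43, 6.10 and 14.3 CPM in astrocytes and 2.95, 7.58 and 13.7 in CaMKII positive cells. It was at 0 in 11 of 15 microglia and 8 of 16 double-positive libraries. Its level was 20.1% and 25.9% of that of Ndufa4 in astrocytes and CaMKII positive cells, against 1.81% and 1.41% in double-positive cells and microglia. The log2FC of astrocytes over microglia was 7.36 ± 0.624 for Cox4i2 (p.adj = 1.42e-12) and 6.21 ± 0.638 for Ndufa4l2 (p.adj = 1.54e-10), values that depend on how the fit treats libraries at 0.

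Cox7a1, the isoform of Cox7a2 best known from heart and skeletal muscle, had a median of 1.19 CPM in astrocytes and was at 0 in 11 of 15 microglia libraries (log2FC 4.80 ± 0.751, p.adj = 9.58e-07). Cox6b2 and Cox7b2, known from testis, had medians of 4.87 and 0.411 CPM in astrocytes. Cox6b2 had a median of 0.529 CPM in microglia, whereas Cox7b2 was at 0 in all 15 microglia libraries, so that no fold is given for it, although it is 1 of the 93 members called higher. Cox6a2, another muscle isoform, was the exception, at 0 in 13 of 17 astrocyte libraries and with a median of 0.390 CPM in microglia (log2FC −3.81 ± 0.972, p.adj = 0.000871). Cox8b, also 1 of the 93, was at 0 in 15 of 15 microglia and 11 of 17 astrocyte libraries. Both Cox7b2 and Cox8b passed the count filter through astrocytes alone. Cox8c was above 0 in 1 double-positive library alone. The 7 mural cell markers split the populations as Cox4i2, Ndufa4l2 and Cox7a1 did. They summed to 411 to 1120 CPM in astrocyte libraries and 679 to 1688 in CaMKII positive libraries. All 7 had a mean of at least 1 CPM in both. In double-positive and microglia libraries they summed to 9.90 to 60.9 and 1.97 to 20.2, with 5 and 3 of 7 at that mean. Their mean was higher in CaMKII positive cells than in astrocytes, at 1237 against 817 CPM. Ndufa4l2 was also higher there (7.77 against 6.85), whereas Cox4i2 was lower (2.47 against 3.45) and Cox7a1 alike (1.27 against 1.29). Endothelial markers split in the same way, with medians of 515, 3566, 67.9 and 65.5 CPM in astrocytes, CaMKII positive cells, double-positive cells and microglia. Astrocyte markers did too, at 37237, 19002, 886 and 233. The part of these cells was not tested.

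Double-positive cells and microglia, which came from different regions of the cortex, differed little. The rule called 9.19% of 28752 genes higher in double-positive cells and 8.45% lower, and of the 94 nuclear members tested 3 were higher and 2 lower, with a median log2FC of 0.02 beside 0.09 over all genes. The interval of 2 SE around the log2FC lay within ±1 for 88 of the 94 and within ±0.5 for 75. Atp5g3, which encodes the subunit c that forms the rotor ring of complex V, had 21.0, 24.8 and 28.5 CPM in double-positive cells and 9.86, 18.9 and 27.0 in microglia. Its log2FC was 0.35 ± 0.0941 (p.adj = 0.00913), although the ranges overlapped. Cox7a2l was lower in double-positive cells (log2FC −0.29 ± 0.0618, p.adj = 0.00110). Ndufab1, the mitochondrial acyl carrier protein (0.21, p.adj = 0.0440), Cox4i2 (3.07, p.adj = 0.0437, with 8 of 16 and 13 of 15 libraries at 0) and Atp5a1 (−0.16, p.adj = 0.0479) were called without the mouse as a block and not with it, at p.adj = 0.0754, 0.288 and 0.0927. Of 13 mitochondrially encoded members, mt-Nd3 was higher (0.30, p.adj = 0.0153), and mt-Nd5 was called lower with the mouse block alone (−0.36, p.adj = 0.0314, against −0.32 and p.adj = 0.0723 without it). Scaling by library size alone gave 8 members higher and 1 lower in place of 4 and 2. The 7 astrocyte markers summed to a median of 886 CPM in double-positive cells (452 to 1327) and 233 in microglia (197 to 342), the 7 microglia markers to 19109 and 24638, and the 5 markers of border macrophages or monocytes to 95.6 (62.2 to 255) and 246 (76.7 to 395), and their part in these differences was not tested.

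CaMKII positive cells lay below astrocytes, which came from another region of the cortex. The rule called 17% of 30729 genes higher in CaMKII positive cells and 12.8% lower, and of 96 nuclear members 1 was higher and 71 were lower, with a median log2FC of −0.53, or 0.69-fold, beside 0.00 over all genes. In complex I 33 of 36 were lower, in complex II 4 of 4, in complex III 7 of 8, in complex IV 10 of 18, in complex V 14 of 17 and among assembly and regulatory members 3 of 13. Ndufc2, an accessory subunit of the membrane arm of complex I, had 13.97, 19.4 and 33.3 CPM in CaMKII positive cells and 23.4, 36.4 and 73.6 in astrocytes (log2FC −1.10 ± 0.160, p.adj = 2.04e-06). Ndufb10, of the same arm, followed with −0.82 ± 0.110, and Uqcrfs1 with −0.92 ± 0.119. Ranges of Ndufc2, Ndufb10 and Uqcrfs1 overlapped between the populations. The member that was higher was Cox7a2l (0.42 ± 0.144, p.adj = 0.0243). Of 13 mitochondrially encoded members 7 were lower and 0 higher, with a median of −0.50. Scaling by library size alone moved the median of all genes to 0.16 and that of the nuclear members to −0.36, with 2 of them higher and 47 lower. Markers of several cell types moved with these levels, and their part was not tested. The astrocyte markers had medians of 19002 CPM in CaMKII positive cells and 37237 in astrocytes, those of endothelial cells 3566 and 515, those of oligodendrocyte precursors 418 and 167, those of oligodendrocytes 589 and 239, and those of microglia 949 and 207.

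CaMKII positive cells lay above double-positive cells, which came from the same piece of tissue. The rule called 31.5% of 30693 genes higher in CaMKII positive cells and 28.4% lower, and of 96 nuclear members 77 were higher and 2 lower, with a median log2FC of 0.80, or 1.74-fold, beside 0.05 over all genes. Scaling by library size alone gave 1.06 beside 0.29. Ndufs5 was at 18.5, 24.1 and 32.5 CPM in CaMKII positive cells and 4.60, 7.30 and 10.5 in double-positive cells, without overlap (log2FC 1.58 ± 0.164, p.adj = 2.83e-09). The same held for 45 of 96 nuclear members, 0 of 13 mitochondrially encoded members and 12.2% of all genes. Ndufb6 (1.52 ± 0.271) and Ndufa4 (1.47 ± 0.166) followed. The members that were lower were Cox7a2l (−0.47 ± 0.132, p.adj = 0.00368) and Cox6a2 (−3.05 ± 1.01, p.adj = 0.0118, and p.adj = 0.0967 with the mouse as a block). Of 13 mitochondrially encoded members 11 were higher and 0 lower, with a median of 0.77, and these 11 include mt-Atp8, which was at 0 in 9 of 10 and 13 of 16 libraries. Between CaMKII positive and double-positive cells the astrocyte markers had medians of 19002 and 886 CPM, the microglia markers of 949 and 19109 and the endothelial markers of 3566 and 67.9, and their part was not tested. In the 3 comparisons in which most nuclear members were called, Cox7a2l was called in the other direction.

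The other genes of the pathway were counted in the same comparison of astrocytes against microglia, in which 40.3% of all genes were called higher and 29.3% lower, with a median log2FC of 0.28. Of the lists, 11 of 13 tricarboxylic acid cycle genes were higher and 0 lower (median log2FC 1.44), among them Cs, citrate synthase, at 544 ± 40.8 CPM (SD, n = 17) against 84.0 ± 13.0 (n = 15). For glycolysis 15 of 17 were higher and 2 lower (1.70). Hexokinases split, with Hk1 higher (2.03) and Hk2 lower (−6.33, mean 4.63 against 390 CPM). A further list held cytochrome genes and the Uqcc assembly factors of complex III. All 5 of its genes tested were higher (0.94), among them Cyc1, cytochrome c1 (1.89). Of the other assembly factors, 5 of 7 for complex I were higher and 1 lower (median 0.69, from −0.51 to 1.70). For complex IV 13 of 19 were higher and 2 lower (0.72, from −0.76 to 2.99). For complexes III and V 5 of 5 were higher (0.48, from 0.18 to 1.97). Of the 19 genes that copy or transcribe mitochondrial DNA or act on its RNA, 11 were higher and 4 lower. Their median was 0.28, the same as over all genes. Among these, Tfam, which packages mitochondrial DNA, had a log2FC of 0.26 (p.adj = 0.0152). Lrpprc, which stabilises mitochondrial transcripts and was counted with the complex IV assembly factors, was lower (−0.76, mean 45.6 against 80.4 CPM). Of the 10 regulators of biogenesis, 3 were higher and 4 lower (−0.27), shares near those of all genes. Ppargc1a was at 143 ± 14.3 CPM in astrocytes and 0.306 ± 0.391 in microglia (log2FC 8.99), and the nuclear receptor Esrrg at 7.44 against 0.326 (4.68). Nrf1 and Gabpa, whose products bind the NRF1 and ETS letters searched for above, had log2FC of 0.01 (p.adj = 0.950) and −0.02 (p.adj = 0.802). Among the transporters and outer membrane genes 9 of 11 were higher and 1 lower (0.88). The ADP/ATP carrier Slc25a4 was higher (2.98), its relative Slc25a5 was not called (0.14, p.adj = 0.113) and the uncoupling protein relative Ucp2 was lower (−5.40, mean 27.2 against 1170 CPM).

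Among mitochondrially encoded members the means over all libraries, per kilobase, had the same order in all 4 populations for the first 8. mt-Co1, the catalytic subunit of complex IV, was highest, at 6702 CPM per kilobase in astrocytes, 5863 in CaMKII positive cells, 2059 in double-positive cells and 1999 in microglia. mt-Co3, mt-Co2, mt-Atp6, mt-Cytb, mt-Nd3, mt-Nd1 and mt-Nd4 followed in that order, with mt-Nd1 and mt-Nd4 at 350.0 and 349.9 in astrocytes. This order did not hold within every batch. In batch 3 astrocytes mt-Nd4 was above mt-Nd1, at 472 against 412 CPM per kilobase (n = 10), and in batches 1 and 2 together mt-Cytb was above mt-Atp6 in CaMKII positive cells (638 against 476, n = 2), double-positive cells (313 against 283, n = 6) and microglia (248 against 176, n = 5). The complex I subunits mt-Nd2 and mt-Nd5 came next and changed places between populations. mt-Nd6, which is read from the other strand, was low, at 30.8, 36.4, 10.2 and 9.62 CPM per kilobase in the same order of populations. In CPM, mt-Co1 had 5687, 10243 and 14867 at its lowest, median and highest in astrocytes, and 1824, 3398 and 3799 in microglia (log2FC 1.85).

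**Figure D3:**
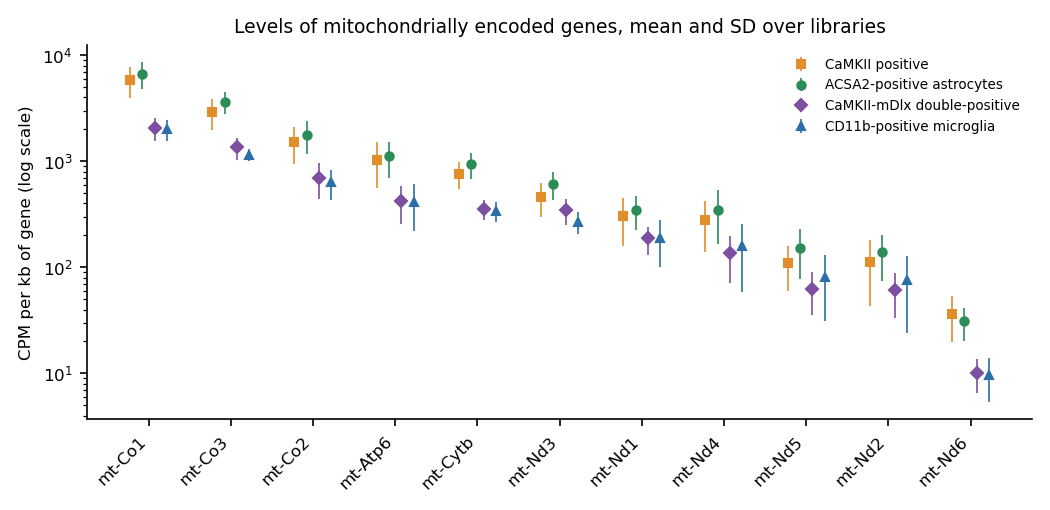
Level of 11 mitochondrially encoded members in CPM per kilobase (log axis) by population, with the mean and SD over libraries, mt-Atp8 and mt-Nd4l left out. The means over all libraries of the first 8 genes, from mt-Co1 to mt-Nd4, have 1 order in all 4 populations, which did not hold within every batch, and the means of microglia and double-positive cells lie below those of astrocytes and CaMKII positive cells.

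These levels are limited by copies of mitochondrial DNA in the nuclear genome. Genes annotated in a stretch of chromosome 1 carry the same letters, and their counts ran with those of the members. The copy of mt-Co2 was listed at 99.9% to 101% of the count of mt-Co2 in each of the 58 libraries, and the copies of mt-Co3 and mt-Nd3 at 99.8% to 100.3% and 99.2% to 100.7%. The copy of mt-Atp6 stood at 101% to 112%, that of mt-Nd4 at 36.6% to 54.2% and that of mt-Co1 at 24.98% to 30.02%. Of all 50-base windows, 100% of those in mt-Co2 recur in another annotated gene, 99.9% in mt-Co3, 99.5% in mt-Atp6, 98.0% in mt-Nd3, 62.2% in mt-Nd4 and 51.1% in mt-Co1, against 8.2% in mt-Nd2, 7.6% in mt-Nd5 and 0 in mt-Cytb, mt-Nd1 and mt-Nd6. Counts of the shared genes are thus uncertain, and the order of levels above is that of the rows as counted. The 14 copies listed together held 0.826% of the counts in astrocytes, 0.698% in CaMKII positive cells, 0.293% in double-positive cells and 0.269% in microglia, which are not part of the mitochondrial shares given above.

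Burn was compared with sham in each population with batch as a term. With the threshold set at p.adj 0.05 and a minimum log2FC of 1 in either direction, the rule called 0% of genes in every population, and 0 of the 108 members tested in CaMKII positive cells, 0 of 106 in double-positive cells, 0 of 108 in astrocytes and 0 of 106 in microglia were called by edgeR, or by DESeq2. At an unadjusted p under 0.05, the background was 3.9% of genes in CaMKII positive cells, 7.01% in double-positive cells, 10.7% in astrocytes and 7.81% in microglia. Split by direction, genes higher in burn made up 2.99%, 3.48%, 7.23% and 4.23% in the same order and genes lower in burn 0.911%, 3.53%, 3.46% and 3.58%. Nuclear members at that level numbered 1 (higher), 3 (all lower), 8 (all lower) and 3 (2 higher and 1 lower), and mitochondrially encoded members 1, 0, 0 and 6, all of them higher. In CaMKII positive cells these were Cox6a2 and mt-Atp8, both at 0 in every sham library. They passed the count filter through burn libraries alone, as mt-Atp8 did in microglia, where it is 1 of the 6. The smallest p.adj of a member was 1.00 in CaMKII positive cells, 0.708 in double-positive cells, 0.458 in astrocytes and 0.639 in microglia. The intervals of 2 SE lay within ±1 for 73 of 95 nuclear members in CaMKII positive cells, 86 of 94 in double-positive cells, 88 of 96 in astrocytes and 82 of 93 in microglia, and within ±0.5 for 24, 54, 67 and 48. Differences of log2FC 1 were thus outside the interval for most nuclear members, and smaller ones were often not detectable, least of all in the 4 against 6 libraries of CaMKII positive cells.

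In astrocytes the small differences had mostly 1 sign. Of the 96 nuclear members, 75 had a log2FC (burn over sham) below 0, as did 12345 of all 27930 genes. The nuclear median was −0.10 beside 0.05 over all genes. All 8 subunits of complex III and all 4 of complex II had a value below 0, as did 28 of 36 in complex I, 14 of 18 in complex IV and 14 of 17 in complex V. Of the 13 assembly and regulatory members 7 were below 0 and 6 above, with a median of 0.00. The 8 members with an unadjusted p under 0.05 were lower. Of all genes 3.46% were lower at that level (965 of 27930), against 8 of the 96 nuclear members, and in either direction the background was 10.7%. Cox7c, a small subunit of complex IV, had 53.4, 70.7 and 83.6 CPM in burn and 65.4, 85.1 and 106 in sham astrocytes, with overlap (log2FC −0.33 ± 0.116, p = 0.00985 and p.adj = 0.458 in edgeR). Sdhaf4, an assembly factor of complex II, had 1.44, 2.74 and 3.98 CPM against 2.79, 4.88 and 8.81 (−0.94 ± 0.355, p = 0.0146, p.adj = 0.458). Cox7a2, Cox4i1, Cox6b1, Uqcrc2 and Sdhd had log2FC of −0.28, −0.25, −0.22, −0.19 and −0.28, and Cox8b, the other member at that level, was at 0 in 11 of 17 libraries. The share of counts on nuclear subunits was 0.410%, 0.478% and 0.524% at its lowest, median and highest in burn and 0.449%, 0.492% and 0.596% in sham astrocytes. The sham library of mouse 15 stood apart at 0.596%, the other 7 reaching 0.516%. Without it the nuclear median log2FC was −0.04 in place of −0.10, with 64 of 96 members below 0 and 4 of them at an unadjusted p under 0.05. Within batch 3 alone, which holds that library, 82 of 95 nuclear members were below 0, beside 12399 of 25718 genes. The medians in that batch were −0.12 and 0.02. The astrocyte markers had medians of 36567 CPM in burn and 41962 in sham libraries, the endothelial markers of 533 and 417, and the excitatory neuron markers of 65.8 (17.9 to 244) and 29.6 (11.5 to 1491), and their part was not tested. Of 13 tricarboxylic acid cycle genes 12 and of 17 glycolysis genes 15 had values below 0 as well, with medians of −0.12 and −0.12. Of the 19 genes that copy or transcribe mitochondrial DNA or act on its RNA 15 were above 0 (0.06), as were 8 of 10 regulators of biogenesis (0.02). Of the cytochrome genes and Uqcc factors 5 of 5 were below 0, and of the transporters and outer membrane genes 8 of 11. Of the other assembly factors 4 of 7 for complex I, 11 of 19 for complex IV and 4 of 5 for complexes III and V were below 0.

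In double-positive cells the 3 burn libraries of batch 1 had no sham library beside them, so that with batch as a term the log2FC rested on 6 burn and 7 sham libraries, whereas the ranges given here cover all 9 and 7. There 67 of 94 nuclear members had a value below 0, as did 13555 of all 26707 genes, with medians of −0.10 and 0.00. The 3 members with an unadjusted p under 0.05 were lower, against a background of 3.53% in that direction. Without the sham library of mouse 18 the median was −0.07. The astrocyte markers had medians of 913 CPM in burn (628 to 1270) and 563 in sham libraries (452 to 1327), and those of oligodendrocyte precursors of 10.5 (4.45 to 114) and 6.24 (4.03 to 17.8), and their part was not tested. Atp5k, subunit e of complex V, had 0.0423, 0.227 and 0.756 CPM in burn and 0.224, 0.400 and 1.21 in sham (log2FC −1.81 ± 0.769, p = 0.0284, p.adj = 0.708 in edgeR), values close to the 3-count limit. Atp5mpl, a small proteolipid of the same complex, had 3.48, 5.77 and 7.86 CPM against 4.93, 7.15 and 9.11 (−0.51 ± 0.218, p = 0.0307, p.adj = 0.708). The groups overlapped for both. In CaMKII positive cells Ndufa10, an accessory subunit of complex I, had 48.8, 56.4, 56.8 and 81.7 CPM in the 4 burn libraries and 39.9, 47.4 and 59.7 at the lowest, median and highest of 6 sham libraries (0.34 ± 0.181, p = 0.0794, p.adj = 1.00 in edgeR). Without the burn library of mouse 24 its log2FC was 0.19. Cox6a2 was at 0 in all 6 sham libraries and at 0, 0, 0.0817 and 0.741 CPM in burn, so that no fold is given. The nuclear median there was 0.04 beside 0.02 over all genes.

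In microglia the nuclear median was 0.01 beside 0.00 over all genes. Of 13 mitochondrially encoded members 12 had values above 0, beside 13182 of all 26079 genes, and the median of the 13 was 0.34. Of the 13, 6 had an unadjusted p under 0.05, all above 0 and mt-Atp8 among them, against a background of 4.23% in that direction. mt-Nd5, a proton-pumping subunit of complex I, had the 14th smallest p of all 26079 genes tested, at a log2FC of 0.53 ± 0.134 (p = 0.000603, p.adj = 0.639 in edgeR). mt-Nd4 had 0.42 (p = 0.00500), mt-Nd1 0.34 (p = 0.0101), mt-Atp6 0.30 (p = 0.0146) and mt-Nd2 0.51 (p = 0.0316), all at p.adj = 0.639. The remaining member of the 6 was mt-Atp8, at 0 in 13 of 15 libraries and above 0 only in the burn libraries of mice 21 and 24. It passed the count filter through burn libraries alone, so that its place in the count is not evidence. The cytochrome oxidase genes mt-Co1, mt-Co2 and mt-Co3 had log2FC of 0.04, 0.12 and −0.10, and mt-Cytb of 0.09. The 5 markers of border macrophages or monocytes summed to 303 ± 72.4 CPM in burn microglia (SD, n = 8) and 210 ± 72.3 in sham (n = 7), and the 6 markers of all neurons had medians of 8.81 and 16.0 CPM, and their part in these differences was not tested. Among nuclear members Ndufb7 had 5.73, 9.47 and 16.5 CPM in burn and 3.69, 8.53 and 13.0 in sham (0.53 ± 0.208, p = 0.0186), and Atp5g1, another gene for subunit c, 15.5, 18.5 and 24.4 against 12.2, 14.5 and 20.6 (0.33 ± 0.137, p = 0.0229), both with overlap and at p.adj = 0.639.

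Within batch 3 alone, with 5 burn and 5 sham microglia libraries, the same genes stood out more. mt-Nd2 had 62.7, 72.8, 73.6, 89.5 and 97.9 CPM in sham and 103, 135, 141, 152 and 160 in burn libraries. mt-Nd5 had 125, 132, 161, 162 and 166 CPM in sham and 185, 239, 250, 275 and 284 in burn libraries. Every burn library lay above every sham library for these 2 genes, whereas the ranges of mt-Nd4 (199 to 305 against 272 to 405), mt-Nd1 (172 to 228 against 213 to 319) and mt-Atp6 (258 to 391 against 348 to 446) overlapped. Of all 24143 genes tested, 0.377% had every burn library above every sham library and 0.389% every burn library below, the latter including 1 of 93 nuclear members, Ndufs7, named after its values were seen. The log2FC were 0.75 ± 0.122 for mt-Nd5 and 0.82 ± 0.134 for mt-Nd2, the smallest and second smallest p of 24143 genes in edgeR, at p.adj = 0.0651 for both, which missed the threshold. In batches 1 and 2 together, mt-Nd2 had 14.2 and 42.5 CPM in sham and 4.67, 7.64 and 19.1 in burn, and mt-Nd5 had 37.3 and 78.1 in sham and 27.9, 32.01 and 43.3 in burn. The 3 burn libraries are all of batch 1, and lay on both sides of its 1 sham library, which had 14.2 CPM of mt-Nd2 and 37.3 of mt-Nd5. Batch 2 held 1 sham library and no burn library of microglia, so that it adds nothing to the comparison. Without the sham library of batch 1 the comparison rests on batch 3, and the log2FC of mt-Nd2 went from 0.51 to 0.82.

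**Figure D4:**
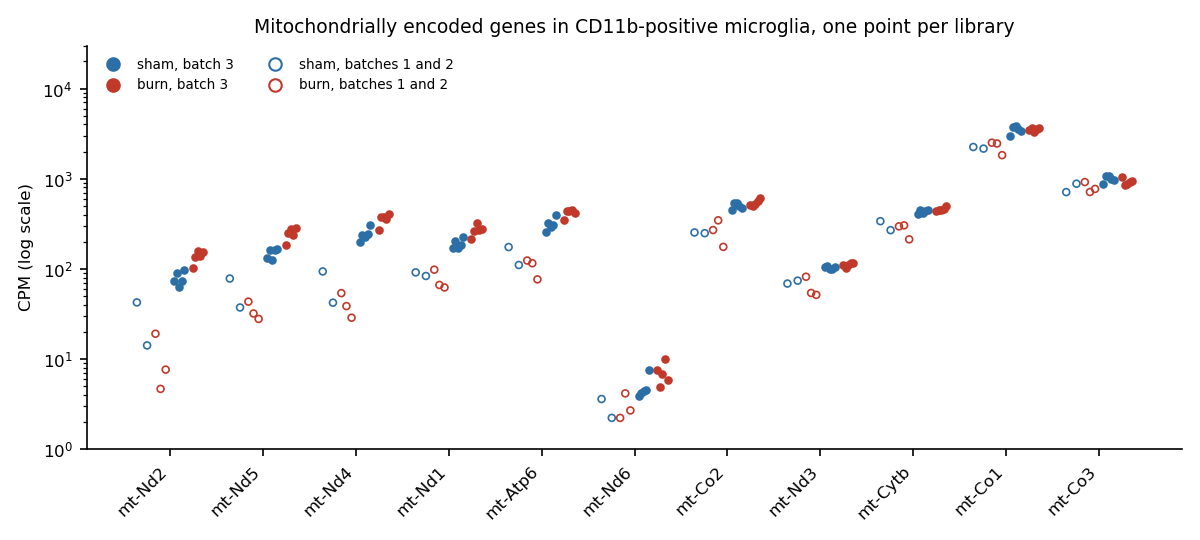
CPM (log axis) of 11 mitochondrially encoded members in each microglia library, with burn and sham in separate colours, batch 3 filled and batches 1 and 2 open. In batch 3 burn libraries of mt-Nd2 lie at 103 to 160 CPM and sham libraries at 62.7 to 97.9, and libraries of batches 1 and 2 lie below both.

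Levels of the members also differed between batches, by unequal ratios. The mean CPM in batch 3 microglia was 6.17 times that in batches 1 and 2 for mt-Nd2, 5.82 for mt-Nd4, 4.53 for mt-Nd5, 3.04 for mt-Atp6 and 2.88 for mt-Nd1, against 2.01 for mt-Co2, 1.62 for mt-Nd3, 1.57 for mt-Co1 and mt-Cytb and 1.21 for mt-Co3. mt-Nd6, at a mean of 6.00 CPM in batch 3, had a ratio of 2.01, below that of mt-Nd1 and mt-Atp6, and a batch 3 burn log2FC of 0.52 ± 0.291, beside 0.51 for mt-Nd1 and 0.43 for mt-Atp6. The nuclear share of counts was 0.944 times that of batches 1 and 2. Over the 11 members other than mt-Atp8 and mt-Nd4l, the order of these ratios and the order of the batch 3 burn log2FC had a Spearman rho of 0.918 (Pearson r 0.914) in microglia, 0.755 (0.745) in astrocytes, 0.645 in double-positive cells and 0.0273 in CaMKII positive cells. Both quantities use the same batch 3 libraries, and the members are transcribed together and share copies, so these values are a description. The part that library preparation, RNA quality or any other property of a batch has in the burn difference was not tested. Within batch 3, 12 of 13 mitochondrially encoded members had a burn log2FC above 0 in microglia (median 0.51), as did 12 of 13 in CaMKII positive cells (median 0.28, 3 burn and 5 sham libraries), 10 of 12 in astrocytes (0.18) and 6 of 12 in double-positive cells (−0.02). With all batches these were 7 of 13 in CaMKII positive cells (0.05, but 1 of 12 and −0.34 without the burn library of mouse 24), 6 of 12 in astrocytes (0.01) and 5 of 12 in double-positive cells (−0.03). In microglia and CaMKII positive cells these counts include mt-Atp8, which was above 0 there only in burn libraries. Of all genes in batch 3, 12181 of 24143 were above 0 in microglia and 11845 of 25351 in CaMKII positive cells. The counts were 13319 of 25718 in astrocytes and 12014 of 24251 in double-positive cells. In astrocytes of batch 3, mt-Nd5, mt-Nd4 and mt-Nd1 had log2FC of 0.41, 0.36 and 0.31 (unadjusted p = 0.0140, 0.0173 and 0.0315, all at p.adj = 0.470 in edgeR). The ribosomal RNAs mt-Rnr1 and mt-Rnr2, which are no members and are targets of the ribosomal depletion, had log2FC of −0.84 and −0.70 in batch 3 microglia, −1.12 and −0.97 in batch 3 astrocytes, 0.84 and 0.77 in CaMKII positive cells and 0.28 and 0.22 in double-positive cells of batch 3, all at p.adj of 0.470 or more in edgeR. Their unadjusted p in batch 3 were 0.00704 and 0.0143 in microglia and 0.00201 and 0.00868 in astrocytes. With all batches their log2FC were −0.62 and −0.60 in microglia (p = 0.0304 and 0.0154, p.adj = 0.639) and −0.85 and −0.72 in astrocytes (p = 0.00743 and 0.0346, p.adj = 0.458), and their part in the burn differences was not tested. Their own ratios of batch 3 to batches 1 and 2 in microglia were 2.42 and 4.23.

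**Figure D5:**
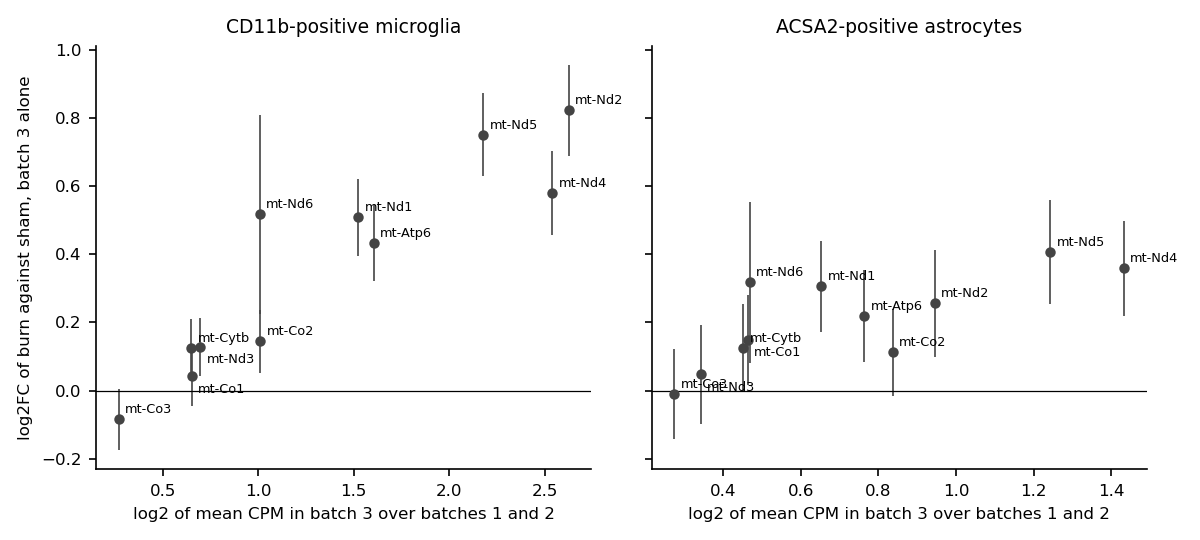
For 11 mitochondrially encoded members, the log2 ratio of mean CPM in batch 3 to batches 1 and 2 (horizontal axis) and the log2FC of burn over sham within batch 3 (vertical axis, bars for the SE), in microglia and astrocytes. In microglia the points run from mt-Co3, at a ratio of 1.21 and a log2FC of −0.09, to mt-Nd2, at 6.17 and 0.82. Double-positive and CaMKII positive cells, with a Spearman rho of 0.645 and 0.0273, are not shown.

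Whether burn acted differently between populations was tested as an interaction. The rule called 0.00977% of 30693 genes for CaMKII positive against double-positive cells and 0.00323% of 30983 for microglia against astrocytes, and 0 members in either. At an unadjusted p under 0.05 the background was 6.01% and 8.67%. For microglia against astrocytes the members with the smallest p were Atp5g1, with a difference in log2FC of 0.57 (p = 0.00321, p.adj = 0.293 in edgeR), and Sdhaf4, with 1.49 (p = 0.00748, p.adj = 0.343). mt-Nd5 had a difference of 0.39 (p = 0.221, p.adj = 0.897), so that its burn log2FC was not shown to differ between microglia and astrocytes. For CaMKII positive against double-positive cells Atp5mpl had a difference of 0.93 (p = 0.0258). The intervals of 2 SE lay within ±1 for 63 of 96 nuclear members in the first test and 79 of 96 in the second, and reached beyond ±1 for the rest.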

How the data were processed

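RNA-seq libraries (Illumina Stranded Total RNA with Ribo-Zero Plus) were made from 4 sorted populations. According to the methods and the submitters' processing notes, the authors trimmed reads with fastp, aligned them with STAR and counted them with GenomicAlignments on Ensembl genes. Both GRCm39 and mm10 are named. The strand, overlap and multi-mapping settings of the counting are not given in the sources used here, so overlapping and antisense genes and near-identical copies are uncertain. The authors deposited 4 tables of raw read counts, not normalised, which were used as they stand. Their 4 tables of normalised values were not used. All columns were matched to samples by name, with 0 columns left over.

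Gene symbols and biotypes came from GENCODE M21 (GRCm38) by Ensembl identifier, which named 52125 of 56980 genes. The members, roles and lists were chosen with earlier results of these data known. CPM scales a count by the total of its library, and levels between genes are given per kilobase of exon. Libraries left out by the study (5) were left out here. Tests used edgeR 4.0.16 (glmQLFit, glmQLFTest, TMM) in R 4.3.3 on genes whose counts summed to 10 or more. Batch was taken from the study's list of animals, since the labels give none. Terms were batch and treatment, plus population for comparisons of populations, and p-values were adjusted by Benjamini and Hochberg over every gene tested. The SE was taken from the log2FC and the F statistic of its test. Calls for burn and interactions used a threshold of p.adj 0.05 with a minimum log2FC of 1 in either direction. Each library is of 1 mouse by its number.

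Named genes were the 13 mitochondrially encoded members, the 4 of complex II, the isoform pairs, the 2 nuclear members with the smallest burn p per population, and in each comparison of populations the 3 with the largest log2FC per direction among called nuclear members with a mean of at least 10 CPM. Members named beyond these, and all pathway genes named singly, were chosen after their values were seen. Libraries with the same mouse number come from the same animal, so numbers pair them. The correlation of their deviations from group means had a median of 0.0324 over 13 mice (astrocytes and microglia), 0.0226 over 13 (double-positive cells and microglia), 0.0746 over 8 (CaMKII positive cells and astrocytes) and 0.0514 over 8 (CaMKII positive and double-positive cells).

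Alternatives were DESeq2 1.42.0, other scalings, other low-count filters, a fit with batch left out, libraries of batch 3 only, sham mice alone, the mouse as a block, another call rule and each library left out in turn. The shares over all deposited libraries were added after seeing the data. Scripts were tested on simulated data. Tables used Python 3.11.15 with numpy 2.4.6 and pandas 2.3.3, and figures matplotlib 3.10.9. The 3-count floors cover counting error only, whereas the SE includes the spread between libraries.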

Additional observations from a re-analysis of the deposited data

Results flagged for a closer look

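In 42 groups of 4 to 10 libraries, the highest or lowest library was set against the others by Dixon's criterion, which marks about 1 group in 20 by chance, and 3 groups were marked. The burn library of mouse 20 in CaMKII positive cells had 0.741 CPM of Cox6a2, against 0 to 0.0817 in the other 3. The sham library of mouse 15 in double-positive cells had 1.21 CPM of Atp5k, against 0.224 to 0.565 in the other 6. The sham library of mouse 15 in astrocytes had 0.596% of its counts on nuclear subunits, against 0.449% to 0.516% in the other 7.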

How the results depend on the processing

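The number of members called for burn against sham was 0 in all 4 populations, and 0 for both interactions, under every alternative tried, the replicate block (mouse as a term) and each library left out included. With the replicate block, 102 members were higher and 2 lower in astrocytes against microglia (main 104 and 2), 2 and 2 in double-positive cells against microglia, 1 and 67 in CaMKII positive cells against astrocytes, and 84 and 1 in CaMKII positive against double-positive cells. Members called in double-positive cells against microglia (6) fell to 1 in sham mice alone and to 1 with a minimum absolute log2FC of 1. In CaMKII positive cells against astrocytes (79) they fell to 52 with library size only, 46 in sham mice alone and 2 with the minimum log2FC. In CaMKII positive against double-positive cells (90) they fell to 38 with the minimum log2FC. Of these drops, those with a minimum log2FC or with fewer libraries follow from the alternative itself, and the cause of the one with library size only was not tested. None of the single-gene values recomputed under every alternative changed sign. Of the mitochondrially encoded members as a list, those with a burn log2FC above 0 went from 7 to 12 of 13 in CaMKII positive cells and from 6 to 10 of 12 in astrocytes within batch 3 alone. Leaving out 1 library, the burn log2FC of mt-Nd5 in microglia ran from 0.46 to 0.74 (p.adj 0.194 to 0.835), of mt-Nd2 from 0.39 to 0.82, of Ndufa10 in CaMKII positive cells from 0.19 to 0.47, of Cox7c in astrocytes from −0.38 to −0.28, of Sdhaf4 from −1.17 to −0.82 and of Atp5k in double-positive cells from −2.15 to −1.47. Depth limited members under about 1 CPM, such as the isoforms Cox6a2, Cox7b2, Cox8b and Cox8c.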

Other observations

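The libraries left out of all comparisons gave these values. In the double-positive library of mouse 8, which held 331215 counts, 0 counts fell on mitochondrially encoded members and 0.00694% of counts on nuclear subunits. The libraries of mouse 3 had 0.978% and 0.381% in CaMKII positive cells, 0.485% and 0.187% in double-positive cells, 1.71% and 0.452% in astrocytes, and 0.467% and 0.215% in microglia. With all deposited libraries, an alternative chosen after seeing the data, the mean mitochondrial shares were 1.46%, 0.57%, 1.77% and 0.575% and the nuclear shares 0.375%, 0.178%, 0.483% and 0.187%, in the order CaMKII positive cells, double-positive cells, astrocytes and microglia.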
